A study of Rattus norvegicus with 10 samples.

Results

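Astrocyte genes were examined in the hypothalamic paraventricular nucleus of dehydrated and control rats. The members were 44 genes named in a list of astrocyte transcripts, and each was represented by the probe set with the highest mean signal over 10 arrays among those annotated with exactly that gene symbol. Of the 44, 40 had such a probe set, out of 14217 genes that the array names this way, and 37 of these passed a filter on dim probe sets. Ppp1r3c, Ednra, Pla2g7 and Sox9 were not analysed here, and Dio2, Thbs4 and Slc6a11 lay below the filter, a mean signal of 24.1. The study hybridised 10 Affymetrix Rat Genome arrays, 5 to RNA of rats dehydrated for 3 days and 5 to RNA of control rats. All animals were male Sprague Dawley rats of 10 to 12 weeks, with no transgene or other treatment named in the labels. Every array carried RNA pooled from the nuclei of 5 animals, and the pools came from separate sets of animals, so an individual rat's level cannot be read from them. The sample labels name the paraventricular nucleus and were followed, while the series' design text names the supraoptic nucleus in its description of the comparison.

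Astrocytes clear glutamate and potassium from the extracellular space, turn glutamate into glutamine for neurons, store glycogen, and join into networks through connexin gap junctions. Around the vasopressin and oxytocin neurons of the hypothalamus they are known for a structural change: during dehydration or lactation their fine processes withdraw from between the neurons, which brings neuronal membranes into contact and alters the clearance of transmitter. The genes below are the usual molecular markers of these cells, although several of them, among them Glud1, Cst3, Sparc, Vim, Prdx6 and the Id genes, are also expressed by other cells of the brain. In dissected tissue, fewer astrocytes and less RNA per astrocyte cannot be told apart.

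Most astrocyte genes, like most probe sets, had log2 differences within 0.2 of 0, and the member that passed the test was lower in dehydrated pools. Glud1, the mitochondrial glutamate dehydrogenase, fell in dehydrated pools. Gfap, the intermediate filament of astrocytes, and Gpr37l1, an orphan receptor of glia, had the next smallest p-values, were also lower, and missed the threshold. Of the 37 genes tested, 1 fell, 0 rose and 36 did not pass (limma across 18629 probe sets, Benjamini-Hochberg adjusted p under 0.05). The share called among all probe sets was 0.580%, of which 0.183% were lower and 0.397% higher, against 2.70% of the members. An unadjusted p under 0.05 was found for 11 members (29.7%), 6 of them lower (16.2%) and 5 higher (13.5%), where all probe sets gave 12.7%, with 6.01% lower and 6.70% higher. The 5 higher include Nes, which reached the filter only through its dehydrated pools. The median log2 difference, dehydrated minus control, was -0.09 over the members and -0.005 over all probe sets. It was negative for 24 members and positive for 13, and 27 of the 37 lay within 0.2 of 0 on the log2 scale, 73.0% against 77.9% of all probe sets. Log2 differences are on the scale of log2(signal + 3.72), and ± after a difference is its standard error.

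**Figure D1:**
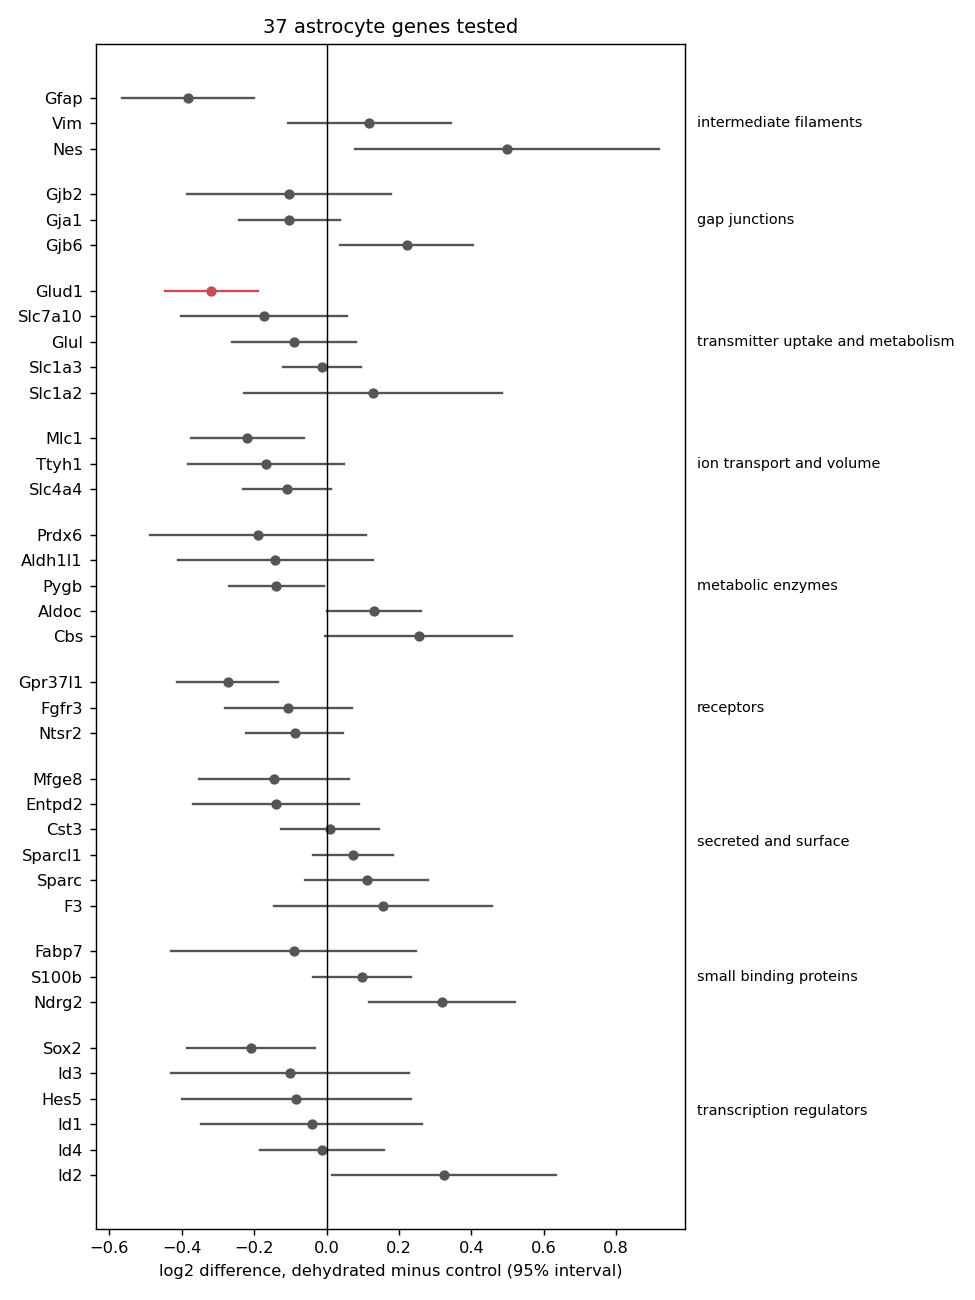
Log2 difference between dehydrated and control pools (x axis, 5 pools each) for the 37 astrocyte genes tested, grouped by role, with points for the estimate and lines for the 95% interval of the limma fit. Glud1, in red, was the member past the adjusted threshold, and the estimates ran from -0.38 for Gfap to 0.50 for Nes. The control mean of Nes lay below the filter, which Nes reached only through its dehydrated pools.

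The regions around the starts of the 3 genes with the smallest p-values are shown, chosen by that rank alone. Each run covers 250 bases before and 50 bases after the RefSeq gene start in build GRCr8, written 5′ to 3′ on the gene's strand, with CpG dinucleotides in capitals.

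Glud1 (chr16:9646319-9646618, plus strand): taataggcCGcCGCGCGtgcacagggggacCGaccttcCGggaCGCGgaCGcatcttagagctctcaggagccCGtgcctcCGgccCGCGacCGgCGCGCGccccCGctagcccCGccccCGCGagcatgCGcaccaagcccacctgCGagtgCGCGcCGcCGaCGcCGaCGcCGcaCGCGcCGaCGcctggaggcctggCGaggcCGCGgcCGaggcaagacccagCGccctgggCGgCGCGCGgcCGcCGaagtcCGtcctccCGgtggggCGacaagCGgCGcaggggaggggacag
Gfap (chr10:88361612-88361911, minus strand): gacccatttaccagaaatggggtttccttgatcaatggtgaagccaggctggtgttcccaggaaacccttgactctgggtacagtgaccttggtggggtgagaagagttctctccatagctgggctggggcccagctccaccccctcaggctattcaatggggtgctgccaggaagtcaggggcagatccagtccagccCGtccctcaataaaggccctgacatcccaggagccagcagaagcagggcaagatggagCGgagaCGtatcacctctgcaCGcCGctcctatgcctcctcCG
Gpr37l1 (chr13:49157155-49157454, minus strand): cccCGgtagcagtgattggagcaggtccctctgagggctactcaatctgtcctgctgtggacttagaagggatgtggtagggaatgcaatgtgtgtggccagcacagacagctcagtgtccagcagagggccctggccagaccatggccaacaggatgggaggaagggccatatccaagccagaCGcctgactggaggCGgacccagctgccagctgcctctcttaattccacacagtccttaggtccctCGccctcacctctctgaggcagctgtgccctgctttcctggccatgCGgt

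The Glud1 window, of a gene that most tissues express, held 51 CpG in 300 bases at a GC content of 78.0%. The windows of Gfap and Gpr37l1, which are largely restricted to glia, held 6 and 5 CpG, with a GC content of 58.7% for Gfap. The median window of the 33469 in the RefSeq table held 7 CpG at 51.7% GC, and the 47 windows of the 41 members found there had a median of 15 CpG at 60.7% GC. Both strands were searched for TTCNNNGAA, the site of the STAT factors that drive Gfap, for TTGGC, a core of nuclear factor I sites, for ACAAT, a core of SOX sites, and for TATAAA. Of the 3 windows, that of Gpr37l1 held TTGGC, 104 bases before the start, and the others held none of these letters. TTCNNNGAA was in 8.87% of all windows and in 2 of the 47 member windows (4.26%), TTGGC in 45.83% and 59.57%, ACAAT in 33.67% and 17.02%, and TATAAA in 14.22% and 8.51%.

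Among the genes of transmitter uptake and metabolism, Glud1 interconverts glutamate and 2-oxoglutarate in mitochondria. Its signals in control pools 1 to 5 were 1310.3, 1171.1, 1216.0, 1235.9 and 1414.4, and in dehydrated pools 1 to 5 they were 938.8, 1084.8, 994.2, 1024.7 and 1036.2. All 5 dehydrated values lay below all 5 control values, which was the case for no other member and for 1.42% of all probe sets tested. In 3.36% of all probe sets the groups did not overlap in either direction, and in 1.94% all dehydrated values were higher. The mean fell from 1270.0 ± 95.3 to 1016.0 ± 54.0 (SD, n = 5 each), a log2 difference of -0.32 ± 0.06 (limma adjusted p = 0.0236). A second probe set of Glud1 had 932.8 ± 126 in control and 733.2 ± 112 in dehydrated pools, a log2 difference of -0.35 ± 0.10 that did not pass (adjusted p = 0.163), with 4 of 5 dehydrated pools below the lowest control pool. The Glud1 call was lost when any of 4 arrays was left out (control replicate 1, or dehydrated replicate 1, 3 or 4), with adjusted p up to 0.0712, and at 0.129 in a fit without the variance trend, 0.0640 without the filter and 0.0672 for the mean of both probe sets.

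The glutamate transporters and glutamine synthetase did not pass. Slc1a3 (GLAST) takes up glutamate, and its signals were 2354.8, 2559.6, 2395.6, 2574.3 and 2674.3 in control and 2477.3, 2440.7, 2455.9, 2666.3 and 2395.1 in dehydrated pools. These ranges overlapped almost entirely, and the 95% interval of the log2 difference ran from -0.12 to 0.09 around -0.01 (adjusted p = 0.937), with the sign changing when control replicate 5 was left out (0.01) and in other probe sets. Slc1a2 (GLT-1), the other main glutamate transporter of astrocytes, was dim on its probe set, at 23.1, 31.0, 42.2, 34.6 and 42.8 in control and 40.7, 31.2, 33.3, 37.2 and 46.7 in dehydrated pools. With signals this near the filter, the interval from -0.23 to 0.48 leaves its direction unsettled. Glul, the enzyme that makes glutamine from glutamate, had 1370.0, 1543.4, 1629.5, 1430.3 and 1789.3 in control and 1327.3, 1714.4, 1307.1, 1426.3 and 1515.7 in dehydrated pools. Its groups overlapped, with a log2 difference of -0.09 ± 0.08 (adjusted p = 0.676), and 2 further probe sets gave -0.02 and 0.02. Slc7a10, a transporter of small neutral amino acids including D-serine, differed by -0.17, and by -0.06 without control replicate 5, the highest pool at 349.0. The GABA transporter Slc6a11 was below the filter, from 17.0 to 24.2 in control and 2.5 to 22.2 in dehydrated pools, and was not tested.

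Gfap had the largest decrease in estimate among the members. Its signals were 1081.9, 1203.0, 1264.1, 1246.3 and 1169.0 in control and 789.8, 1082.9, 793.6, 885.9 and 1054.3 in dehydrated pools. The groups met at a single point, where dehydrated replicate 2 exceeded the lowest control, replicate 1, by 1 signal unit, and the other 4 dehydrated pools were below every control. Means were 1193.0 ± 72.3 and 921.3 ± 140 (SD, n = 5 each), a log2 difference of -0.38 ± 0.09 with a 95% interval from -0.56 to -0.20 (adjusted p = 0.0553). Leaving out dehydrated replicate 2 or 5 brought it past the threshold (adjusted p = 0.0192 and 0.0425), and leaving out any of the other arrays did not, with adjusted p up to 0.151. The other intermediate filament genes, which mark immature and reactive astrocytes as well as vessel cells, had positive estimates. Nes (nestin) was at 28.2, 17.2, 28.6, 21.5 and 22.6 in control and 49.7, 34.6, 32.5, 39.8 and 21.2 in dehydrated pools. Dehydrated replicate 5 lay among the controls and the other 4 above them, on a probe set close to the filter (log2 0.50 ± 0.20, adjusted p = 0.310). The control mean of Nes, 23.6, lay below the filter of 24.1, and its dehydrated mean, 35.6, lay above. Nes was thus tested only because of the group in which it was higher, and its estimate is a description. Vim (vimentin) differed by 0.12 ± 0.11, with an interval from -0.11 to 0.34.

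**Figure D2:**
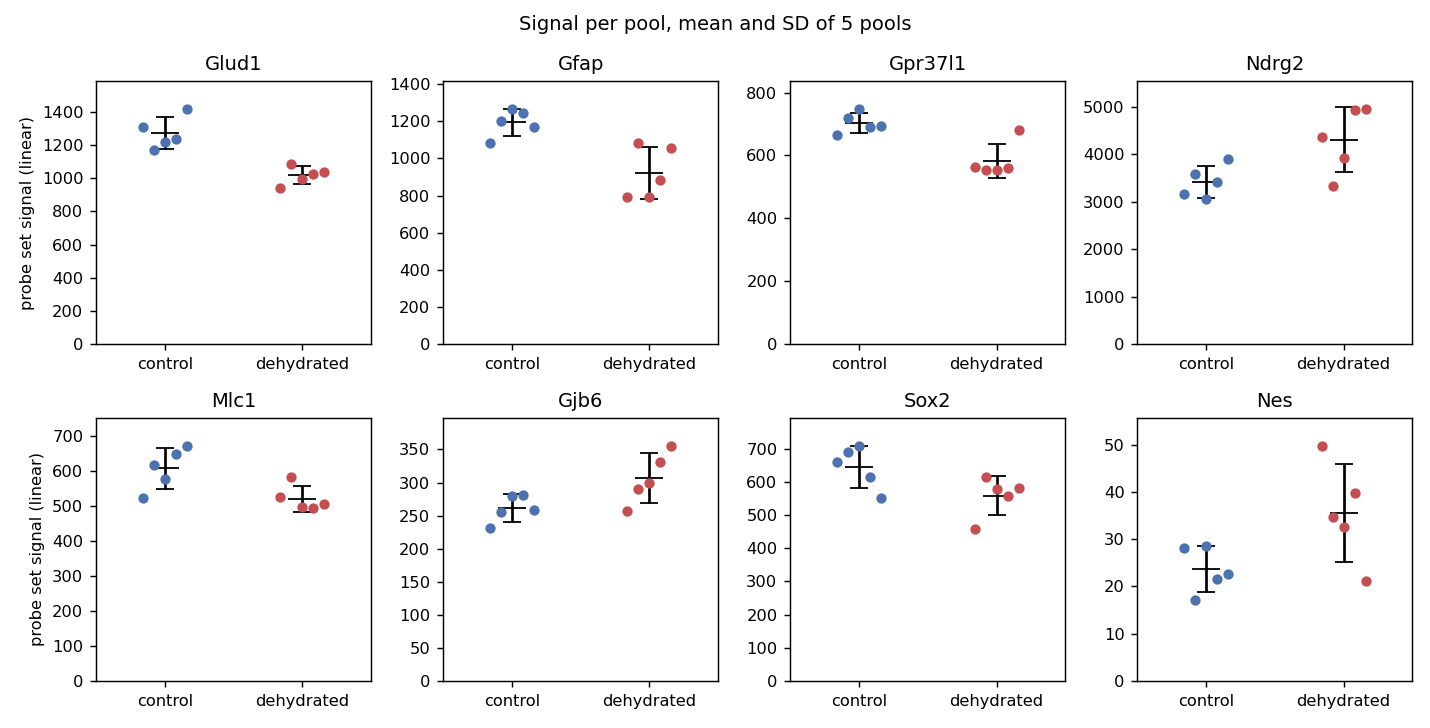
Probe set signal (y axis, linear, from 0) in each of 5 control and 5 dehydrated pools for the tested member that was called and 7 others with the next smallest p, with the mean and SD of each group in black. The groups were apart for Glud1, and in Gpr37l1 dehydrated replicate 5, at 680.8, lay among the control pools.

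None of the 3 receptor genes passed, and all had negative estimates. Gpr37l1 had 665.0, 720.3, 747.1, 689.7 and 693.4 in control and 564.0, 554.7, 555.3, 559.0 and 680.8 in dehydrated pools. Dehydrated replicate 5 stood within the control range, while the other 4 lay within 10 units of each other and below every control. The log2 difference was -0.27 ± 0.07 (adjusted p = 0.0773), and without dehydrated replicate 5 it was -0.33 and passed (adjusted p = 0.0195). Fgfr3, a fibroblast growth factor receptor of astrocytes and their precursors, differed by -0.11, with another probe set at 0.18, and the neurotensin receptor gene Ntsr2 by -0.09, with adjusted p of 0.624 and 0.585.

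The genes of ion transport and volume regulation had negative estimates on their main probe sets. Mlc1, a membrane protein of astrocyte endfeet that takes part in volume regulation, had 524.7, 618.3, 577.1, 649.5 and 672.7 in control and 526.3, 583.7, 496.8, 494.2 and 505.1 in dehydrated pools. Control replicate 1 lay with the dehydrated pools and dehydrated replicate 2 with the controls (log2 -0.22 ± 0.07, adjusted p = 0.221). The chloride channel family gene Ttyh1 differed by -0.17 ± 0.10, and its 3 other probe sets by -0.28, -0.08 and -0.03, none of them past the threshold.

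For Slc4a4, which encodes the sodium bicarbonate cotransporter of astrocytes, the probe sets differed. The dimmer was called higher, and the brighter, with a negative estimate, did not pass. The brighter was at 1026.8, 1058.1, 1045.1, 1018.9 and 1027.1 in control and 857.7, 1002.4, 1046.3, 977.1 and 925.7 in dehydrated pools. Of the dehydrated values, 4 lay below every control value, and the log2 difference was -0.11 ± 0.06 (adjusted p = 0.443). The other was at 183.8, 177.8, 211.8, 203.6 and 168.2 in control and 226.2, 240.2, 277.6, 264.3 and 301.8 in dehydrated pools. There all dehydrated pools were higher than all control pools, and the signal rose by a log2 difference of 0.46 ± 0.09 (limma adjusted p = 0.0288), a call lost on leaving out any of 5 arrays (control replicate 1 or 2, or dehydrated replicate 3, 4 or 5; up to 0.0933), at 0.0607 with median centring, at 0.0533 without the filter and at 0.0951 without the variance trend. The log2 ratio of this probe set to the brighter was -2.43 ± 0.14 in control and -1.86 ± 0.16 in dehydrated pools (SD, n = 5 each), given without a test because the pair was chosen after its values were seen. It was the only other probe set of a member past the threshold among 17 tested. Over those 17, from 11 genes, 10 had the sign of the gene's main probe set and 7 the opposite sign.

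**Figure D3:**
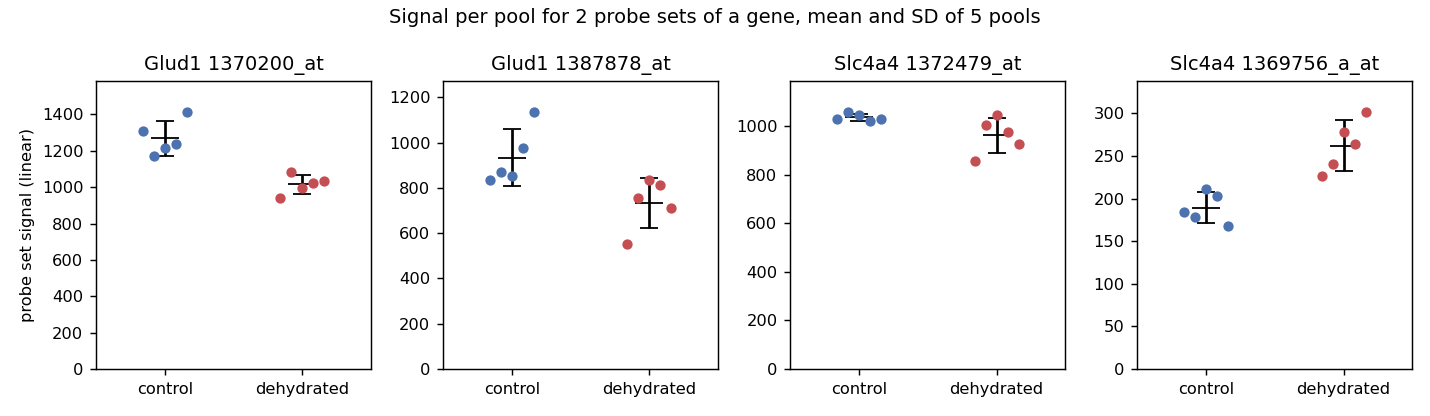
Probe set signal (y axis, linear, from 0) in each control and dehydrated pool for 2 probe sets each of Glud1 and Slc4a4, with the mean and SD of 5 pools in black. Both Glud1 probe sets had lower means in dehydrated pools. For Slc4a4 the dimmer probe set was called higher, with a log2 difference of 0.46, and the brighter, at -0.11, did not pass.

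**Figure D4:**
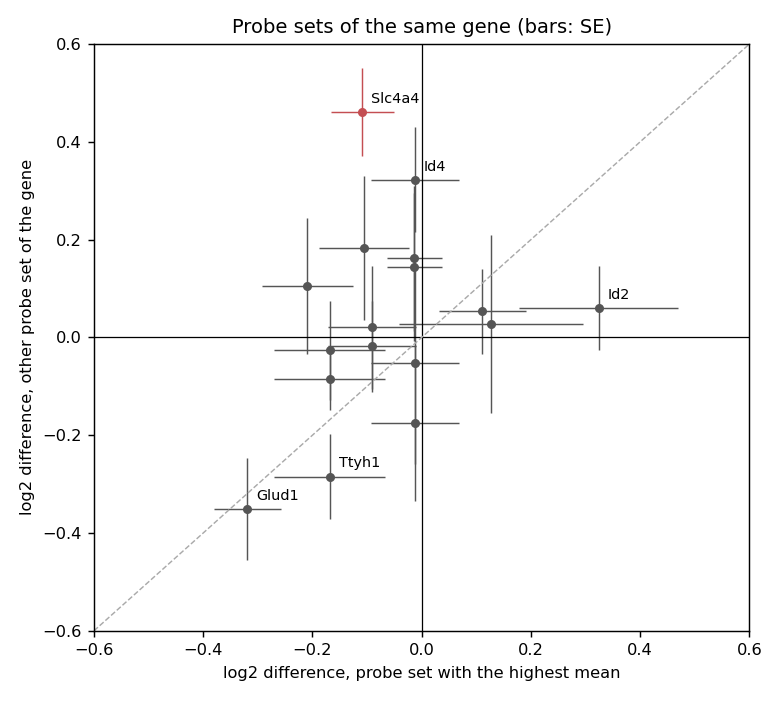
Log2 difference, dehydrated minus control, of the probe set that stands for a gene (x axis) against that of each other tested probe set of the same gene (y axis), for 17 probe sets of 11 members, with standard errors as bars and equality as the dashed line. Glud1 lies near the line at -0.32 and -0.35, and Slc4a4, in red, in the opposite quadrant at -0.11 and 0.46.

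Gap junction genes split in sign. Gjb6 (connexin 30) had 231.4, 255.8, 280.2, 281.7 and 258.4 in control and 256.9, 290.4, 299.2, 330.6 and 355.3 in dehydrated pools. Dehydrated replicate 1 fell among the controls and the other 4 lay above them, a log2 difference of 0.22 ± 0.09 that did not pass (adjusted p = 0.304). Gja1 (connexin 43), the main astrocyte connexin, was at 2733.2, 3100.9, 2702.2, 3127.5 and 2938.4 in control and 2352.2, 2688.0, 2715.6, 2803.5 and 3058.6 in dehydrated pools. Its groups overlapped (log2 -0.10 ± 0.07, adjusted p = 0.539), as did those of Gjb2 (connexin 26), which differed by -0.10 ± 0.13.

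Among the small binding proteins was the positive estimate with the smallest p-value of the members. Ndrg2, a cytoplasmic protein enriched in astrocytes, had 3173.3, 3577.8, 3050.7, 3428.5 and 3904.2 in control and 4374.5, 3342.2, 3930.4, 4937.5 and 4951.6 in dehydrated pools. Dehydrated replicate 2 lay inside the control range and the other 4 above it. The log2 difference was 0.32 ± 0.10 (adjusted p = 0.161), 0.21 under quantile normalization, 0.09 when averaged with a second, dim probe set, and 0.41 without dehydrated replicate 2, where it passed (adjusted p = 0.0297). S100b, the calcium-binding protein of astrocytes, had 2749.3, 2960.9, 2972.4, 3086.3 and 3568.1 in control and 3237.0, 2980.4, 3284.4, 3440.1 and 3433.0 in dehydrated pools. Control replicate 5 was the highest of all 10, and the interval ran from -0.04 to 0.23 (log2 0.10 ± 0.06, adjusted p = 0.549). Fabp7, a fatty acid binding protein of radial glia and astrocytes, differed by -0.09 ± 0.16, with control signals from 388.0 in replicate 5 to 858.7 in replicate 1, and by -0.28 ± 0.09 without control replicate 5 (adjusted p = 0.180).

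Among metabolic enzymes, Aldoc, the brain aldolase of astrocytes, had 2415.5, 2467.4, 2412.7, 2537.5 and 2670.4 in control and 2708.1, 2423.0, 2595.0, 3004.9 and 3001.5 in dehydrated pools. In 3 dehydrated pools it was above every control (log2 0.13 ± 0.06, adjusted p = 0.389). Pygb, the brain glycogen phosphorylase, had 1461.2, 1458.1, 1391.9, 1317.7 and 1248.9 in control and 1158.7, 1369.3, 1194.0, 1312.0 and 1211.7 in dehydrated pools. The groups overlapped between 1248.9 and 1369.3 (log2 -0.14 ± 0.06, adjusted p = 0.368). Aldh1l1, a folate enzyme much used as a marker of all astrocytes, had 102.2, 102.6, 113.6, 129.5 and 168.4 in control and 112.5, 90.1, 114.1, 110.3 and 122.6 in dehydrated pools. The highest was control replicate 5, and the log2 difference of -0.14 ± 0.13 (adjusted p = 0.677) was -0.03 without it. Cbs, which makes cystathionine, differed by 0.25 and the peroxiredoxin gene Prdx6 by -0.19, or by -0.03 without control replicate 5. Dio2, the deiodinase that activates thyroid hormone, was below the filter on all arrays, from 1.0 to 10.5.

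The genes of secreted and surface proteins all lay within 0.2 of 0, and 0 of the 6 tested had an adjusted or unadjusted p under 0.05 in limma. Cst3 (cystatin C) differed by 0.01 ± 0.06, with a 95% interval from -0.13 to 0.14, and the matricellular genes Sparcl1 and Sparc by 0.07 and 0.11. Mfge8, a bridging protein in phagocytosis, and the ectonucleotidase Entpd2 differed by -0.15 and -0.14, and F3, tissue factor, by 0.16. Without control replicate 5, Sparc differed by 0.19 ± 0.06 (adjusted p = 0.132), Mfge8 by -0.08, Entpd2 by -0.06 and Cst3 by 0.06. Thbs4, a thrombospondin, was below the filter in both groups, from 0.9 to 10.4 in control and 1.8 to 12.5 in dehydrated pools.

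Of the transcription regulators, Sox2, which maintains neural stem cells and glia, had 659.5, 691.6, 708.8, 615.1 and 552.6 in control and 459.5, 613.8, 577.7, 556.7 and 583.4 in dehydrated pools. Control replicate 5 fell below 4 of the dehydrated pools (log2 -0.21 ± 0.08, adjusted p = 0.309), and another probe set gave 0.11. The Id genes, inhibitors of basic helix-loop-helix factors, differed by -0.04 (Id1), 0.32 (Id2), -0.10 (Id3) and -0.01 (Id4), and control replicate 5 was at the edge of the control group for all of them. Id1 was at 172.5 there against 92.5 to 111.5 in the other controls, and Id3 at 127.2 against 76.3 to 87.4, whereas Id2 was at 125.8 against 220.6 to 259.2 and Id4 at 525.9 against 604.6 to 671.3. Without that pool the differences were 0.11, 0.14, 0.02 and -0.07, none of them past the threshold. Of 3 further Id4 probe sets, 1 differed by 0.32 ± 0.11 with all dehydrated pools above all controls (adjusted p = 0.221), and the others by -0.18 and -0.05. Hes5, a Notch target, differed by -0.08 ± 0.15.

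The members moved together only weakly between pools, and less so without control replicate 5. The median of their deviations from each gene's mean over 10 arrays ran from -0.09 in control replicate 1 to 0.12 in control replicate 5, and from -0.06 to 0.03 in dehydrated pools, so that the ranges overlapped. Control replicate 5 held the highest signal of all 10 pools for 16 of the 37 genes. Without it, the median difference of the members was -0.03, 21 were negative and 16 positive, and 3 changed sign. Without it Gjb2 was at -0.19, Slc1a2 at 0.20, S100b at 0.15 and Fgfr3 at -0.06, and none of these passed. Within groups, the median correlation of pairs of members over the 10 arrays was 0.16, with 59.9% of the 666 pairs above 0, and it was 0.06 without control replicate 5. The median over all pairs of tested probe sets was 0.00 either way. These correlations describe shared variation of 10 arrays and rest on few points.

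**Figure D5:**
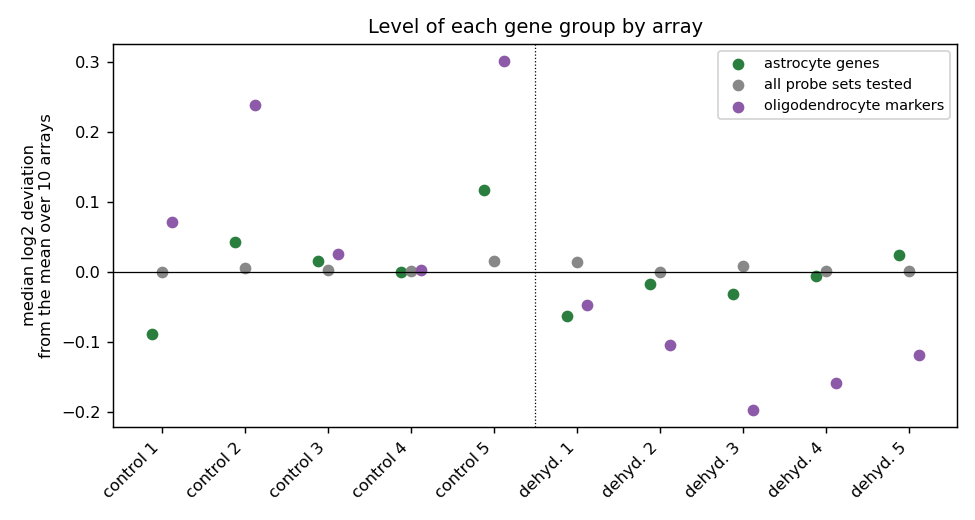
Median log2 deviation from each gene's mean over 10 arrays (y axis) in each array (x axis), for the 37 astrocyte genes, 11 oligodendrocyte markers and all probe sets tested. Astrocyte genes overlap between the groups, with control replicate 5 highest at 0.12, whereas the 5 dehydrated arrays lie below the 5 control arrays for the oligodendrocyte markers.

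Other genes of astrocyte pathways were read from 8 lists. Of the 8, the list of glycogen, lactate and glycolysis genes had a call: Ldha, a lactate dehydrogenase subunit, rose from 786.0 ± 43.9 to 948.3 ± 33.9 (SD, n = 5 each), with all dehydrated pools above all controls (log2 0.27 ± 0.06, limma adjusted p = 0.0353). That call was lost on leaving out any of 7 arrays (control replicate 1, 2 or 3, or dehydrated replicate 1, 2, 3 or 4; adjusted p up to 0.102), at 0.0910 with median centring, at 0.0692 without the filter and at 0.155 without the variance trend. In that list 1 of 11 tested genes rose, 0 fell and 10 did not pass, and Pfkfb3, which makes an activator of glycolysis, differed by -0.40. The median of the list was -0.005.

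Reactive astrocyte genes, which astrocytes switch on after injury or inflammation, had the highest median of the 8 lists, 0.33 over 11 tested genes, of which 8 were positive. In limma 0 passed, and 5 had an unadjusted p under 0.05, 4 of them higher and 1 lower, the complement gene C3 at -0.37 (adjusted p = 0.295). The leading genes were S100a10, an annexin partner, from 181.9 ± 21.7 to 243.4 ± 25.4 with the groups apart (log2 0.41 ± 0.10, adjusted p = 0.0627), and the guanylate binding protein gene Gbp2, from 27.5 ± 5.38 to 41.7 ± 4.85 (log2 0.55, adjusted p = 0.117). Of the 24 listed genes, 10 on the array were below the filter and were not tested. Among these Lcn2, the secreted lipocalin 2, singled out after its values were seen, was at 15.4 ± 2.12 in control and 32.7 ± 8.02 in dehydrated pools, with all dehydrated pools higher, and its mean over all arrays lay just under the filter. Several of the genes tested are also expressed by microglia and vessels.

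The remaining lists had 0 calls in limma. Water, potassium and sodium pump genes had a median of -0.04 over 11 tested genes, with Aqp4, the water channel of astrocyte endfeet, at -0.16 (adjusted p = 0.249) and the urea transporter gene Slc14a1 at -0.31 (0.328), and 2 had an unadjusted p under 0.05. Transmitter and amino acid handling genes had a median of 0.03 over 13, with the cystine transporter Slc7a11 at -0.48 (adjusted p = 0.0808) and the serine synthesis enzyme Phgdh at -0.32 (0.0859), and 4 at an unadjusted p under 0.05. Lipid and sterol carriers had a median of -0.11 over 9, with the desaturase gene Scd2 at -0.22 (adjusted p = 0.0665) and clusterin (Clu) at -0.12, and 1 at that p. Notch, BMP and FGF signalling genes had a median of -0.04 over 21, with the ligand gene Bmp4 at -0.59 ± 0.13 and its groups apart, which just missed the threshold (adjusted p = 0.0502), Fgfr2 at -0.16, and 2 at that p. Matrix genes had a median of -0.08 over 10, led by brevican (Bcan) at -0.17 and tenascin R (Tnr) at -0.30, with 2 at that p. Glial purine and peptide signalling genes had a median of 0.01 over 11, led by endothelin 1 (Edn1) at 0.23 and neuromedin B (Nmb) at 0.18, with 0 at that p.

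The defining astrocyte markers Gfap, Aldh1l1, Aldoc, Slc1a2, Slc1a3, Gja1 and Glul passed the filter on dim probe sets. No marker was listed at 0 on any array, which tells little, since at most 7 probe sets of an array were. Several sets of markers of other cells moved with the groups. Magnocellular neuron markers moved most, with 3 of 5 called higher. These were Caprin2 at 1.84, Pdyn at 0.81 and Creb3l1 at 0.80 (limma adjusted p = 6.58e-08, 5.72e-04 and 0.0159). The hormone genes Avp (vasopressin) at 0.50 and Oxt (oxytocin) at 0.24 overlapped between the groups and did not pass (limma adjusted p = 0.0504 and 0.218). Sums of the magnocellular markers overlapped, at 7272.4 to 9487.6 in control and 9418.5 to 12733.4 in dehydrated pools. All 11 oligodendrocyte markers on the array were negative (median log2 -0.28), and 8 had an unadjusted p under 0.05. Among them Ermn, a cytoskeletal protein of myelinating cells, fell by 0.63 ± 0.12 (limma adjusted p = 0.0255). That call was lost without control replicate 2 or dehydrated replicate 3 or 4, without the filter, and without the variance trend (adjusted p up to 0.0942). The summed signal of the oligodendrocyte markers was 7909.8 to 9570.4 in control and 7332.6 to 7665.3 in dehydrated pools, with no overlap. Microglial markers had a median of -0.08 over 9, of which 7 were negative. Aif1 was at -0.42 with the groups overlapping, and Laptm5 at -0.49 with all dehydrated pools lower (limma adjusted p = 0.0880 and 0.159). Sums of the microglial markers, of which Ctss made up the largest share, overlapped (2514.2 to 2768.0 and 2479.5 to 2950.0). Endothelial markers had a median of 0.19 over 10 (1010.0 to 1346.9 and 1215.0 to 1417.1), and neuronal markers -0.09 over 12 (11389.8 to 12100.2 and 10722.3 to 12271.3). Markers of neighbouring hypothalamic nuclei had a median of -0.50 over 5, and 3 of these had an unadjusted p under 0.05, all lower. They were Hcrt at -1.28 ± 0.44, the lowest estimate of all probe sets tested, Hdc at -0.67 with the groups apart, and Nkx2-1 at -0.50. None was past the adjusted threshold (limma adjusted p = 0.233, 0.135 and 0.205). Control pools were uneven for Hcrt, at 689.2 and 609.3 in replicates 1 and 5 and from 2026.6 to 2508.0 in the others. Dehydrated pools ran from 235.1 to 1027.0. Sums of the neighbouring nucleus markers overlapped (4291.8 to 7189.8 and 3526.3 to 6183.0), with Pmch, at 3867.0 ± 462 and 3958.0 ± 794, the largest part. Sums of precursor, pericyte and meningeal, ependymal and choroid plexus markers overlapped as well. Of the 2 red cell markers, the haemoglobin gene Hbb fell from 659.3 ± 80.0 to 418.7 ± 94.1 (log2 -0.67, limma adjusted p = 0.0305). The part of these markers in the differences of Glud1, Gfap and the other members was not tested.

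Array medians lay close together and no difference in control transcript ratios was detected, whereas array weights were less alike. Array medians ran from 36.4 to 39.1, and the log2 ratio of 3 prime to 5 prime control signal was 1.41 ± 0.21 in control and 1.58 ± 0.22 in dehydrated arrays for Gapdh (exact permutation p = 0.254, two-sided, n = 5 each) and 2.70 ± 0.33 and 2.84 ± 0.17 for beta-actin (exact permutation p = 0.516), where the smallest p this design allows is 0.0079. On the first principal component control replicate 5 was at 37.2 and the other arrays from -14.4 to 3.69. This array had the lowest array weight, 0.385. On the second component dehydrated replicate 2 lay at 5.87 and the other dehydrated arrays from -19.9 to -5.88. Control replicates 1 to 4 lay from 9.46 to 17.9 there, and control replicate 5, at -12.7, lay among the dehydrated arrays. With control replicate 5 and dehydrated replicate 2 left out, 3 members passed, where 1.55% of all probe sets were called. Glud1 at -0.30 and Gfap at -0.45 were lower and Ndrg2 at 0.46 higher (limma adjusted p = 0.0140, 0.0163 and 0.00739).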

How the data were processed

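RNA of 5 dehydrated and 5 control pools was measured on 1 array each. The deposited values were linear probe set intensities (signals), and the submitters' processing notes name GCOS 1.2 as the authors' software. No source used here states the algorithm or background step. Every array had the same mean after trimming 2% at each end (100.0), so the authors had scaled the arrays. Such signals compress at the top and hold background at the bottom, which shrinks differences there. The number of arrays limits the precision.

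Of 31042 probe sets that are not controls, 20826 had 1 gene symbol in the platform annotation. Signals were used as log2(signal + 3.72), the pseudocount being 0.1 of the median array median, for the 18629 probe sets at or above the 40th percentile of mean signal. Groups were compared across all of these with lmFit and eBayes (variance trend) of limma (version 3.58.1, run under R 4.3.3), and two-sided p-values were adjusted by Benjamini and Hochberg's method against a threshold of 0.05. The code was tested on simulated data. Groups came from the sample labels, and replicates were numbered in accession order and pair nothing. Each group has its own run of numbers in the sample titles, that of control replicate 5 being further off, so any batch those numbers mark cannot be told apart from dehydration. Genes were described in full if called, if among the 8 next smallest p-values, or if in a set of standard markers. Slc4a4, which met none of these rules, was given pool by pool after the values of its other probe set were seen. From each further list, called genes and at most 2 others were named, and Hcrt, C3, Lcn2, Ctss and Pmch besides, chosen after their values were seen. The members, lists and rules were chosen with earlier results of these data known. Alternatives were other scalings, pseudocounts, filters, variance models, array weights, arrays left out and other probe sets. Promoter windows came from RefSeq tables (GRCr8).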

Additional observations from a re-analysis of the deposited data

Results flagged for a closer look

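In all, 5 signals of members stood apart from the other 4 pools of their group, among 80 groups of 5 checked, where chance alone gives about 1 in 20. Control replicate 5 gave 3 of them, with Id1 at 172.5 (next 111.5), Id3 at 127.2 (next 87.4) and Id2 at 125.8 (next 220.6). Gpr37l1 was at 680.8 in dehydrated replicate 5 (next 564.0). Dio2, below the filter, was at 10.5 in control replicate 4 (next 2.8).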

How the results depend on the processing

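The count of members called, 1 as reported, was 3 with array weights, 2 with a pseudocount of 64, quantile normalization or the stricter filter (60th percentile), and 3 without control replicate 5 and dehydrated replicate 2. It was 0 without the filter, without the variance trend and with the mean of all probe sets of a gene, and 1 under the other scaling, pseudocounts and robust fit. The share of all probe sets called, 0.580% as reported, moved too: 1.08% with array weights, 0.698% with that pseudocount, 0.564% with quantile normalization, 0.958% with the stricter filter, 1.55% without both arrays, 0.206% without the filter, 0.242% without the trend and 0.591% with probe set means. The cause was not tested. The count of members called ran from 0 to 3 when single arrays were left out, at 0 without control replicate 1 or dehydrated replicate 1, 3 or 4, where 0.247% to 0.376% of all probe sets were called, and 3 without dehydrated replicate 2 or 5, where 0.709% and 0.429% were. The members' median of -0.09 was -0.0293 with the mean of all probe sets and -0.0289 without both arrays, and ran from -0.10 to -0.03 with single arrays left out. Without both arrays 5 members changed sign, Aldh1l1, Slc1a3, Hes5, Id1 and Id3. Among the genes described in full, signs reversed for Aldh1l1 without both arrays (0.041; -0.2015 to -0.0264 with single arrays left out), for Sox2 (0.11) and Glul (0.0211) on another probe set, and for Slc1a3, which was at 0.0059 with array weights, 0.10 with the mean of probe sets, 0.0159 without both arrays, 0.0094 without control replicate 5 (from -0.0389 with single arrays left out), and 0.14 and 0.16 on other probe sets. The count of called pathway genes, 1, ran from 0 to 1 with single arrays left out. The Gapdh ratio difference ran from 0.07 to 0.22 and that of beta-actin from 0.0009 to 0.21. Other probe sets of Gja1 and Ndrg2 and 2 of Sox2 lay below the filter. No paired analysis was possible because the labels give no replicate numbers.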
